A study of Mus musculus with 4 samples.

Results

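The genes described here are 9 antimicrobial and secretory genes of Paneth cells, taken by name: Lyz1, Mmp7, Ang4, Itln1, Habp2, Defa21, Defa22, Defa24 and Defa26. Array probes were assigned to them through the RefSeq accession that each probe carries. Of the 9 genes, 7 had a probe, out of 21649 genes and transcripts tested in all; no probe was assigned to Defa22 or Defa24. Ileal total RNA from C57BL/6J male mice aged 10 weeks was measured on 4 single-colour arrays, with 2 control samples and 2 samples from mice given metformin by mouth at 1000 mg/kg. The groups thus shared strain, sex and age and differed in the drug. How long the drug was given, and in what vehicle, is not stated in the sources used here. Nor do the labels say that each sample is its own animal; the p-values then reflect sample-to-sample spread alone, which may be technical. The question was how metformin, a glucose-lowering biguanide, changes expression in the ileum, the distal small intestine.

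Paneth cells sit at the base of the small-intestinal crypts, between the Lgr5-positive stem cells, and release granules of antimicrobial proteins into the crypt lumen. Their main products are lysozyme and the alpha-defensins, short cationic peptides also called cryptdins in the mouse. In the mouse these peptides are made as inactive precursors and cut to the active form by the protease matrilysin. Wnt signalling through TCF factors keeps the cells mature, and their products are most abundant in the distal small intestine.

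None of the 7 measured genes differed between control and metformin samples beyond the spread between replicates. Mmp7, Ang4 and Habp2 had means 1.89-fold, 1.85-fold and 1.95-fold lower with metformin, while the metformin means of Lyz1, Itln1, Defa21 and Defa26 lay within 1.20-fold of those of the controls. These differences rested on few arrays. Metformin 1 had the lowest value of the 4 arrays in 6 of the 7 genes, whereas 28.6% of all genes tested were lowest there. For Mmp7, Ang4 and Habp2 control 2 was also the highest array, and without it their differences (log2, metformin minus control) were -0.29, -0.41 and -0.54, in place of -0.92, -0.89 and -0.96. The fit passed 0 of the 7 genes and 0 of all 21649 (0% called; limma, Benjamini-Hochberg adjusted p under 0.05). At an unadjusted p under 0.05 it found 347 genes (1.6%), and 0 of the 7. In bulk RNA such as this, fewer Paneth cells and less RNA per Paneth cell cannot be told apart.

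All 4 arrays lay on 1 slide read in 1 scan, with the controls at positions 1 and 2 and the metformin samples at positions 3 and 4, so position and treatment cannot be told apart. Between 65.2% and 69.1% of probes were well above background. The ileal label was set against 2 defining genes of the distal ileum, with others given below. Fabp6, which binds bile acids inside ileal enterocytes, gave 8.94, 8.29, 4.16 and 8.69 (log2 relative to the array's 75th percentile) in controls 1 and 2 and metformin 1 and 2, and Slc10a2, the ileal bile acid transporter, 4.45, 3.28, -0.9 and 4.92. Both were far lower in metformin 1 than in the other arrays, and whether that sample came from the same stretch of gut was not tested. Paneth cell, goblet cell and general epithelial markers were detected in both groups.

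Promoter stretches are shown for a defensin and for the protease that activates defensins. Another is for the 1 gene whose groups did not overlap on the probe tested. The stretches are not what the probes read. Of the 9 genes, 7 had a promoter window in the RefSeq table (build GRCm38.p6), and the 250 bases before the start site are printed for 3 of them, 5′ to 3′. These are Defa21 (chr8:21025295-21025544, plus strand), Mmp7 (chr9:7691840-7692089, plus strand, the more upstream of its listed starts) and Ang4 (chr14:51773591-51773840, minus strand). Capitals mark matches on either strand to 3 motifs, chosen after looking at the sequences. They are ATCAAAG, a form of the motif bound by TCF and LEF factors, TATAAA, a form of the TATA box, and TGACTCA, the AP-1 motif, read in reverse complement where it lies on the opposite strand. No motif match overlapped another.
Defa21: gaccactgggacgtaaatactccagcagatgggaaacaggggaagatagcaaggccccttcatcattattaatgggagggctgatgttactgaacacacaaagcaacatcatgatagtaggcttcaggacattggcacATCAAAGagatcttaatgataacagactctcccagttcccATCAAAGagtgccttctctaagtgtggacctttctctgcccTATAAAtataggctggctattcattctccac
Mmp7: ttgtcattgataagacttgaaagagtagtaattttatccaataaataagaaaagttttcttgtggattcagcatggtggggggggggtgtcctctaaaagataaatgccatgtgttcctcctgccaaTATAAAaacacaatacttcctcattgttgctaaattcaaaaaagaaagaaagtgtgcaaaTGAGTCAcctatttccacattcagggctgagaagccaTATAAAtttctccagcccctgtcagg
Ang4: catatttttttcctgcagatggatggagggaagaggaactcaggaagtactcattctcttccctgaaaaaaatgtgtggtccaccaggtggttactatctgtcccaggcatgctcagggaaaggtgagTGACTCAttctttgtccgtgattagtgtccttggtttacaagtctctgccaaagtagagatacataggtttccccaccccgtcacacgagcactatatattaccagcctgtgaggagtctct

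The 250 bases before Defa22, a gene with no probe here, were identical to those before Defa21 (250 of 250). In an alignment with gaps, 4 of the 15 other defensin windows matched Defa21 at 90% of bases or more, and the least similar, Defa28, matched at 66%. Counted from the start site, with bases before it negative, Defa21 held ATCAAAG at -112 and -72 and TATAAA at -31. Mmp7 held TATAAA at -123 and -26 and the AP-1 motif at -63, and its ATCAAAG match lay at 5, past the printed stretch. Ang4 held the AP-1 motif at -122. The windows of Lyz1, Itln1 and Habp2 held none of the 3. Among all 32851 windows of 300 bases, 3.73% held ATCAAAG, 13.6% TATAAA and 5.2% TGACTCA. Of the 16 defensin windows, 13 held ATCAAAG and 15 TATAAA, but as near copies they are not independent. These matches describe letters and show no binding.

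Levels below are log2 signal relative to the array's own 75th percentile, unless called unscaled. Lyz1 encodes the lysozyme of Paneth cell granules, which cleaves bacterial cell walls. It read 7.83 and 7.5 in controls 1 and 2, and 7.53 and 7.79 in metformin 1 and 2. The metformin values lay between the controls. The difference, metformin minus control, was -0.0031 (SE 0.31), and its 95% interval ran from -0.82 to 0.82, so that it does not show equal expression either (adjusted p = 1.0, limma). Lyz2, the macrophage lysozyme and the nearest gene to Lyz1 on its chromosome with 0 genes between them, read 0.62, 2.21, -0.12 and 1.3 in the same order of arrays. Cross-hybridisation between the lysozyme probes could not be checked without probe sequences.

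The alpha-defensins Defa21 and Defa26 encode precursors of cryptdins. Defa21 read 8.39 and 8.08 in controls and 7.81 and 8.29 with metformin. Defa26 read 8.03 and 7.84 in controls and 7.35 and 7.99 with metformin. In both, metformin 1 was the low array and metformin 2 lay between the controls. The differences were -0.19 (SE 0.34) for Defa21 and -0.26 (SE 0.35) for Defa26, smaller than the gaps of 0.49 and 0.63 between the metformin samples (adjusted p = 1.0 for each, limma). Alpha-defensin transcripts are known to be near copies of each other; without probe sequences, how many of them each probe reads was not tested, and the values are uncertain as those of a named gene.

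Mmp7 encodes matrilysin, the protease that activates the defensin precursors in the mouse. It varied most of the 7 genes, reading 3.34 and 4.59 in controls and 2.01 and 4.08 with metformin. Each group held a low and a high sample, and metformin 2 lay between the controls. The group means were 3.96 ± 0.89 and 3.05 ± 1.46 (SD, n = 2 each), a difference of -0.92 (SE 0.86; 95% interval -3.22 to 1.38; adjusted p = 1.0, limma). The gap between the metformin samples, 2.07, was wider than the difference between the groups.

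Habp2 encodes a secreted serine protease that binds hyaluronan. It followed the same order of arrays as Mmp7, with 2.03 and 2.87 in controls and 0.82 and 2.16 with metformin. Metformin 2 again lay between the controls. The difference was -0.96 (SE 0.6; 95% interval -2.56 to 0.64; adjusted p = 1.0, limma). In distance between array profiles, each taken relative to its own mean, Mmp7 and Habp2 lay 0.3 apart (root mean square, log2) and Ang4 and Habp2 0.32 apart.

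Ang4 encodes a microbicidal ribonuclease of the angiogenin family. It was the only measured gene of the 7 whose groups did not overlap on the tested probe, with control levels of 5.37 and 6.33 and metformin levels of 4.72 and 5.19. The means were 5.85 ± 0.68 and 4.96 ± 0.33 (SD, n = 2 each). The difference was -0.89 (SE 0.45; unadjusted p = 0.114 and adjusted p = 1.0, limma). Of all genes tested, 8.51% were likewise lower with metformin without overlap and 12.4% higher, so 1 of 7 is near the background. With scaling to the array median or to the spike-in controls, or in the deposited table as it stands, 0 of the 7 genes were lower without overlap, while with quantile normalization or the mean of a gene's probes 2 were. Over all 21649 genes the counts were 1103 with median scaling, 3088 with spike-in scaling, 1668 with quantile normalization and 1878 with the probe mean. In the deposited table the count was 3862 of 21672. With a sample left out, where fewer values make separation easier, 1 to 6 of the 7 genes were lower without overlap. Of all 21649 genes, 4706 to 6874 were.

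Itln1 encodes intelectin, a lectin that binds sugars of microbial surfaces, and had 2 probes. The brighter read 8.21 and 8.0 in controls and 7.7 and 8.06 with metformin, a difference of -0.22 (SE 0.31; adjusted p = 1.0, limma). The dimmer read 7.67 and 7.69 in controls and 7.08 and 7.57 with metformin, a difference of -0.35 (SE 0.32; adjusted p = 1.0 in limma's fit of every probe). Both probes had their lowest value in metformin 1. The groups overlapped on the brighter probe and did not on the dimmer.

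**Figure D1:**
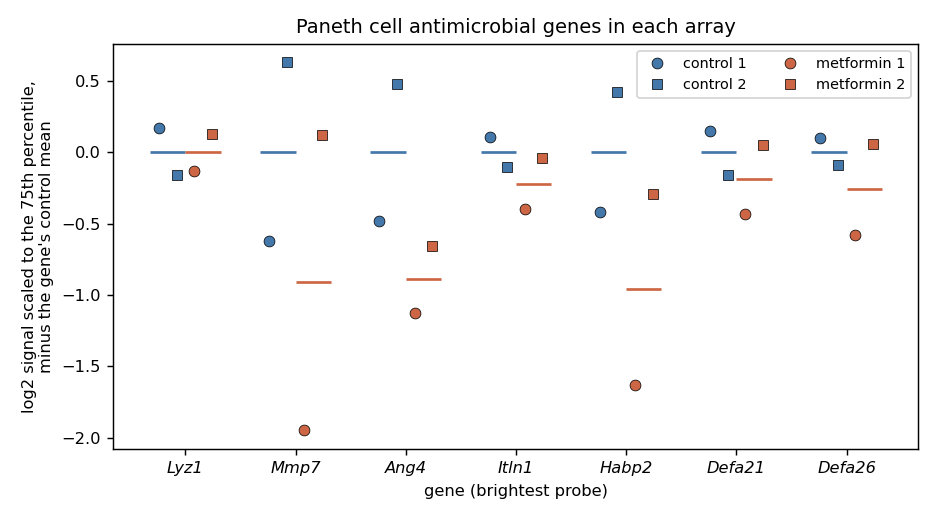
Log2 signal of each of the 7 measured genes in the 4 arrays, relative to the array's 75th percentile and minus the gene's control mean (y axis); circles are samples numbered 1, squares those numbered 2, and short lines the group means of 2 samples. On the brightest probe of each gene, metformin 1 is the lowest array for every gene except Lyz1, and the groups separate for Ang4 alone.

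Over the 7 genes the median difference was -0.26, against 0.06 over all genes tested, and all 7 differences were below 0, Lyz1 by -0.0031 only; 42.3% of all genes had a difference below 0. The median over the genes of the value relative to the control mean was 0.1 for control 1, -0.1 for control 2, -0.58 for metformin 1 and 0.05 for metformin 2. Metformin 2 thus lay between the controls. Without metformin 1 the median difference was 0.055, and 3 of the 7 differences were below 0 (Ang4, Itln1 and Habp2). Lyz1, Itln1, Defa21 and Defa26 had profiles within 0.06 to 0.19 of each other and spanned 0.33 to 0.68 over the arrays, with the highest value in control 1. Mmp7, Ang4 and Habp2 spanned 1.61 to 2.58, with the highest value in control 2, as for 19.6% of all genes.

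The order of the controls depended on the scaling. Without scaling, all 7 genes were highest in control 2 and lowest in metformin 1 (67% and 43.6% of all genes were so, respectively). Unscaled, Mmp7 gave control signals of 9278 and 35170 and metformin signals of 3499 and 18136. Defa21 gave 308862 and 394577 in controls and 194252 and 336137 with metformin. The 75th percentiles that set the scaling were 919 for control 1, 1457 for control 2, 868 for metformin 1 and 1072 for metformin 2, so scaling lowered control 2 most. The 7 spike-in controls with signals above 100, RNAs added in set amounts, ranged by only 0.08 to 0.19 (log2) between arrays before scaling. With the arrays scaled to these controls, an alternative chosen after seeing the data, the differences were -1.14 for Mmp7, -1.11 for Ang4, -1.18 for Habp2 and -0.23 for Lyz1, and 0 genes passed in limma. Under that scaling the median of all genes was itself shifted to -0.162.

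**Figure D2:**
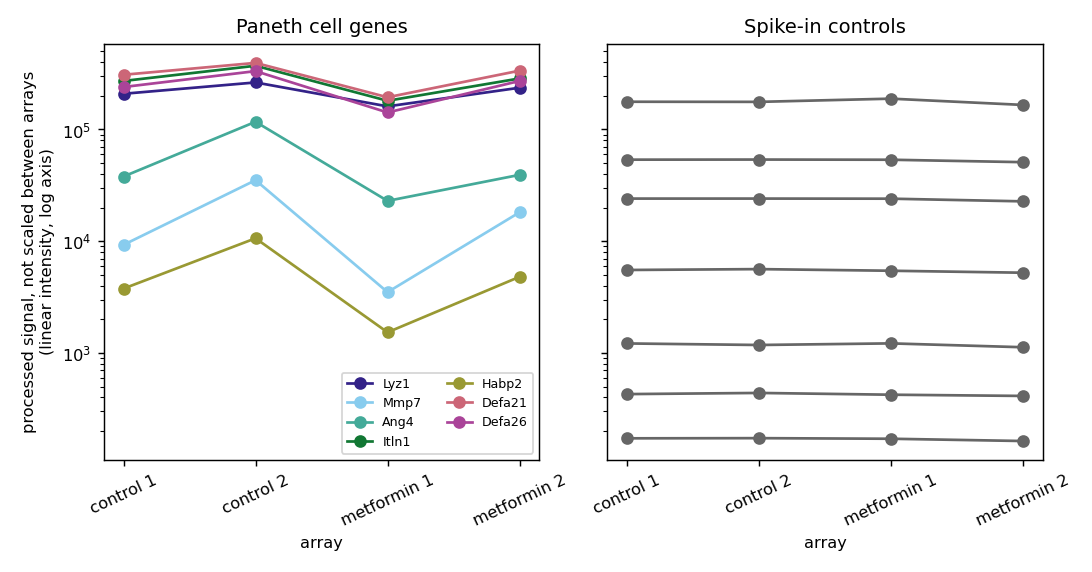
Processed signal (linear intensity on a log axis, not scaled between arrays) of the 7 genes, left, and of the 7 brighter spike-in controls, right, in each array (x axis). All 7 genes are highest in control 2 and lowest in metformin 1, while the spike-in controls are nearly level.

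The brightest probes ranged least between arrays. Lyz1 reached 20.7% to 33.9% of the scanner's saturation value over the arrays and Defa21 25% to 50.7%, and 0 spots were marked saturated. Among the 26 probes of the 7 genes and of other alpha-defensins, the 22 with a mean unscaled signal of at least 200000, a limit chosen after seeing the values, ranged by 0.2 to 1.36 (log2) between arrays, median 0.49. The other 4, for Mmp7, Habp2, Ang4 and Defa25, ranged by 2.33 to 3.33. Over the whole array, 145 probes of at least 200000 had a median range of 0.27. The 1960 probes between 20000 and 200000 had one of 0.9, and the 5852 between 2000 and 20000 one of 0.85. The brightest probes thus ranged least by median there too, but the 4 dimmer probes ranged more widely than each of these medians. Single probes ranged widely, by up to 4.88, 7.86 and 10.47 in the same order. The probes at each signal read different transcripts. Whether the brightest spots still follow the amount of RNA was not tested, and the spike-in controls reached signals of 165910 to 188760 only.

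**Figure D3:**
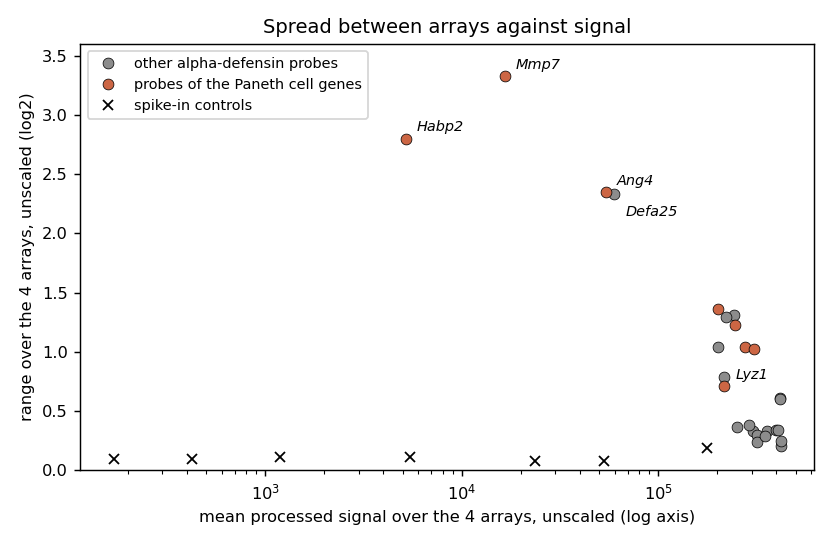
Range over the 4 arrays (log2, unscaled) against mean processed signal (log axis) for 8 probes of the Paneth cell genes, 18 probes of other alpha-defensins and 7 spike-in controls. The dimmer probes of Mmp7, Habp2, Ang4 and Defa25 range by 2.33 or more, the bright defensin probes by 1.31 or less.

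Other alpha-defensin genes showed no common direction. With SEs of 0.29 to 0.5, they do not show equal expression either. How far their probes read the same transcripts was not tested. Of 36 further symbols of the family in the gene table, pseudogenes included, 14 had a probe and 12 of these were well above background on all 4 arrays. In limma's fit, 0 of the 12 passed in either direction, 6 had a difference above 0 and 6 below, and the median was 0.05. Over their 18 probes, differences ran from -0.71 to 0.19. All 18 were highest in control 2 and lowest in metformin 1 before scaling, but after it 13 were lowest in control 2 and 5 in metformin 1. Defa25, whose probe lies under that limit, read 5.58 and 6.31 in controls and 4.73 and 5.74 with metformin, a difference of -0.71 (SE 0.5). The bright Defa23 probe read 8.79 and 8.28 in controls and 8.83 and 8.63 with metformin, a difference of 0.19 (SE 0.33). Defa39, Defa-ps1 and Defa27 differed by -0.21, -0.18 and -0.12 (SE 0.32, 0.33 and 0.29). After scaling, Defa25 thus had the array order of Mmp7 and Habp2, and Defa23 did not. Before scaling this Defa23 probe had that order too, at 406597 and 453451 in controls and 394781 and 424198 with metformin.

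Of 13 further secreted products reported in Paneth cells, 10 were measured, and 0 of them passed in either direction (limma; median difference -0.1, 5 above 0 and 5 below). Ang, the angiogenin gene, read 3.68 and 4.37 for the controls and 2.88 and 3.45 for metformin; like Ang4 its groups did not overlap, and it differed by -0.86 (SE 0.41). The lipase cofactor Clps and the lipase Pnliprp2, both also made by pancreas, differed by -0.59 (SE 0.44) and -0.76 (SE 0.58). Each of the 3 was highest in control 2 and lowest in metformin 1. The antimicrobial lectin Reg3a went the other way, at 4.75 and 4.52 in controls and 5.25 and 5.15 with metformin, a difference of 0.57 (SE 0.29). Rnase1, a secreted ribonuclease, differed by 0.35 (SE 0.3), also without overlap. Pancreatic acinar markers were listed because Clps and Pnliprp2 are pancreatic genes too. Their median relative to the control mean was -0.27, 0.27, 0.07 and 0.27 in controls 1 and 2 and metformin 1 and 2. Among the 8 measured, Cela3b and Cpb1 were well above background on 2 arrays only. The part of pancreas in the values of Clps and Pnliprp2 was not tested.

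Genes of the secretory granule, autophagy and the endoplasmic reticulum showed no common direction: 14 of 14 were measured, 0 passed (limma), and the median difference was -0.1. Bhlha15, a transcription factor of secretory cells, read -0.028 and 1.04 in controls and -0.97 and 0.53 with metformin. Kcnn4, a potassium channel linked to Paneth cell secretion, read -0.7, 0.69, -1.54 and 0.14. Both had the order of arrays seen for Mmp7. Xbp1, a regulator of the unfolded protein response, and Nod2, a sensor of bacterial peptidoglycan, were higher by 0.47 (SE 0.48) and 0.48 (SE 0.45). Ripk2, the kinase downstream of Nod2, was well above background on 3 arrays and differed by -0.32 (SE 0.33).

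Of the 14 regulators of Paneth cell fate and niche signals, all were measured and 0 passed (limma; median difference -0.16). The niche ligands Egf and Wnt3 differed by -0.82 (SE 0.54) and -0.78 (SE 0.63). Sox9, the transcription factor required to form Paneth cells, read -0.84 and -0.15 in controls and -2.07 and -0.43 with metformin, a difference of -0.76 (SE 0.66). Egf, Wnt3 and Sox9 were each highest in control 2 and lowest in metformin 1. Atoh1 and Gfi1, factors shared with goblet cells, did not follow that order. Atoh1, which opens the secretory lineage, read 1.85, 1.01, 1.42 and 0.69, and Gfi1, a repressor in the same lineage, read 0.41, -1.38, 0.04 and -1.81. Spdef, a factor of goblet and Paneth cell maturation, read 3.11, 4.13, 2.69 and 4.13, also lowest in metformin 1. Tcf7l2, the main TCF factor of the crypt, and the growth factor Tgfa differed by 0.32 (SE 0.29) and 0.26 (SE 0.28), both without overlap.

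Metformin 1 was also the low array for markers of crypt stem cells and proliferation. Crypt stem cell markers had a median relative to the control mean of -0.05 for control 1, 0.05 for control 2, -0.89 for metformin 1 and -0.23 for metformin 2, and proliferation genes one of -0.34, 0.34, -1.28 and -0.24. Lgr5 read -0.29 and 0.075 in controls and -1.8 and -0.36 with metformin, and 12 of 14 stem cell markers were lowest in metformin 1. The stem cell markers of smallest p, Tnfrsf19, Smoc2 and Lrig1, differed by -1.5 (SE 0.5), -1.09 (SE 0.48) and -0.73 (SE 0.36), and the proliferation genes E2f1, Foxm1 and Mki67 by -0.78 (SE 0.3), -0.78 (SE 0.32) and -0.75 (SE 0.39). In all 6, which were picked for their small p, the groups did not overlap. Over the whole lists, 6 of 14 stem cell markers and 6 of 15 proliferation genes were lower with metformin without overlap. Of all genes tested, 8.51% were. The median of goblet cell markers was not lowest in metformin 1, at -0.07, 0.07, -0.06 and 0.18 in the same order of arrays. Of the 13 goblet cell markers measured, 6 were nonetheless lowest there, against 28.6% of all genes tested. Muc2, the main intestinal mucin, was 1 of them, at 5.58, 6.18, 5.42 and 6.29, and differed by -0.027 (SE 0.45). The medians of general epithelial markers lay between -0.06 and 0.22 in all arrays, and 3 of the 10 markers were lowest in metformin 1. Single markers varied more, such as Krt18 at 6.25, 7.12, 6.03 and 7.45. In these 4 lists 0 genes passed (limma).

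Enterocyte genes of gut region set metformin 1 apart further. Genes of the distal ileum had a median relative to the control mean of 0.32 for control 1, -0.32 for control 2, -1.58 for metformin 1 and 0.08 for metformin 2. Genes of the proximal small intestine had 0.3, -0.3, 2.12 and -0.54 in the same order. Fabp6 and Slc10a2, given above, are among the distal genes. Cubn and Amn, also among them, were instead highest in metformin 1. Cubn read 6.54, 5.89, 6.58 and 6.27, and Amn 5.44, 4.64, 5.68 and 4.84. Onecut2, a transcription factor, read -3.9, -1.69, 0.74 and -0.95, a difference of 2.69 (SE 0.97; adjusted p = 1.0, limma). Gata4, a transcription factor of the proximal small intestine, read 0.27, 0.45, 2.32 and -0.44. Not all proximal genes did so: 2 of the 11 were lowest in metformin 1. These were Cybrd1, at -3.31, -2.43, -3.94 and -3.28, and Slc40a1, at 0.75, -1.37, -1.69 and 0.055. Ada (6.5, -0.91, 7.59 and -0.58) and Apoa4 (3.93, 0.99, 6.86 and -0.42) were highest in metformin 1 but high in control 1 too. The array lowest in Paneth cell genes was thus also lowest in 7 of 9 distal genes and highest in proximal ones by median; the part of gut region in the Paneth cell values was not tested. Of the 9 distal genes, 1 was highest in control 2, as Mmp7, Ang4 and Habp2 were: Fgf15, the ileal hormone that curbs bile acid synthesis, at 1.09, 3.36, -0.82 and 2.04.

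**Figure D4:**
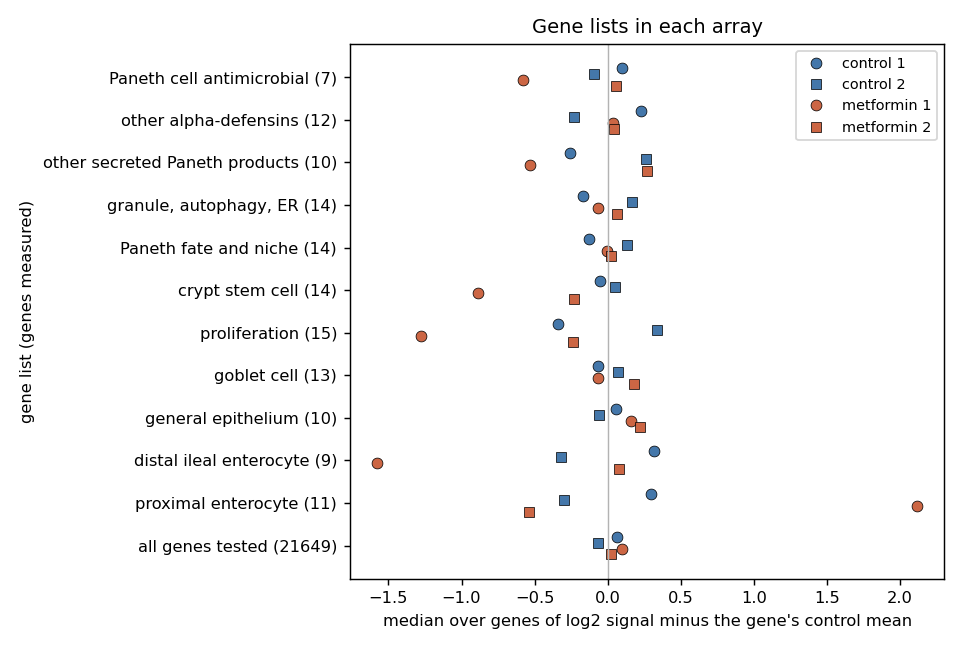
Median over the genes of each list of the level relative to the control mean, log2 (x axis), in each array, with the number of genes measured beside each list. Metformin 1 stands lowest for Paneth cell antimicrobial, other secreted, stem cell, proliferation and distal ileal genes among the lists drawn, and highest for proximal genes at 2.12. Smooth muscle, adipocyte, myeloid and pancreatic lists are not drawn.

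Markers of tissue other than epithelium varied too. Smooth muscle markers had medians of 2.34, -2.34, -3.45 and -2.55 in controls 1 and 2 and metformin 1 and 2, with control 1 far above the rest and metformin 1 lowest (in 7 of the 9 genes). Adipocyte markers had -0.6 and 0.6 in controls and -2.14 and -3.67 with metformin. Myeloid markers, which bear on Lyz2, had -0.15, 0.15, 0.7 and 0.22, highest in metformin 1. Unadjusted p was under 0.05 for 8 of the 8 adipocyte markers measured and 0 of the 9 smooth muscle markers, and 0 of either list passed the adjusted threshold (limma). The part of these tissues in the Paneth cell values was not tested.

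Of 13855 other genes with a symbol and a signal well above background on all 4 arrays, those with profiles nearest to the median profile of the 7 genes were Thoc2l (root mean square distance 0.016, log2), Cdk14 (0.029), Ptpn9 (0.034), Oxtr (0.041), H2ac12 (0.041) and Vmn2r4 (0.041). The likeness is over 4 arrays. The median profile, relative to its own mean, was 0.19, 0.06, -0.42 and 0.17 in controls 1 and 2 and metformin 1 and 2. The histone gene H2ac12, for example, read 6.85, 6.8, 6.29 and 6.81.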

How the data were processed

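RNA of 4 ileal samples, 2 control and 2 metformin, was hybridised to 1-colour arrays, grouped by the sample titles. Per the file headers, the authors' scanner files hold spot intensity on a linear scale from Agilent Feature Extraction 10.7.3.1, background-subtracted and detrended within each array and not scaled between arrays. The authors also deposited a table of intensity values; the labels call it normalized, but it equalled the raw median spot signal for 39030 of 39030 probes of 1 spot, and it served as an alternative.

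Log2 of the deposited processed signal was taken relative to each array's 75th percentile over non-control probes. Spots marked as outliers were left out, which dropped 47 of 39429 probes, and spots of a probe were averaged. Unversioned accessions were matched to the RefSeq gene table of GRCm38.p6, naming 27508 probes and leaving 11921 unnamed. The headers' genome build differs from that assembly, so coordinates are given for promoters only. A probe was kept if each array of either group had it well above background, and the brightest probe of a gene entered limma 3.58.1 (lmFit, eBayes; R 4.3.3; two-sided, Benjamini-Hochberg over 21649 genes; 2 residual and 2.43 prior degrees of freedom). The fit was run on simulated data whose noise was independent between arrays, which checks the code only. How the fit performs with the spread of these samples was not tested.

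The genes and lists were chosen with earlier results of these data known. The rule for named genes took all 9 genes, the 5 genes of smallest p of each Paneth list and the 3 of every other list, a fixed set (Lyz2, Pla2g2a, Sox9, Atoh1, Gfi1, Spdef, Nod2, Xbp1, Lgr5, Muc2, Epcam, Slc10a2, Fabp6 and Gata4) and the 6 nearest profiles. Pla2g2a had no assigned probe, and lists outside the Paneth cell, stem cell and proliferation genes are given mostly by their medians. The files hold no mean spot signal, so the normexp alternative used the median spot signal. Other alternatives changed the scaling, filter, spots, probe choice, eBayes options, replicate block and samples. Arrays of this number limit the precision.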

Additional observations from a re-analysis of the deposited data

How the results depend on the processing

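Under all 17 alternatives 0 genes passed limma's adjusted threshold. Ang4, Itln1 and Habp2 kept a difference below 0 in all 17, with ranges of -1.37 to -0.41, -0.49 to -0.04 and -1.63 to -0.29. The median over the 7 measured genes stayed below 0 in 16 and ranged from -0.58 to 0.055 when a sample was left out; it turned without metformin 1, as did Mmp7 (0.12), Defa21 (0.056), Defa26 (0.055) and Lyz1 (0.12). Lyz1, near 0 from the start, also turned without control 1 (0.16) and with scaling to the array median (0.12). Over the left-out samples Mmp7 ranged from -1.95 to 0.12, Lyz1 from -0.17 to 0.16, Defa21 from -0.43 to 0.056 and Defa26 from -0.58 to 0.055; a lone sample in a group is assumed to vary like the other group. The cause of each turn was not tested.

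The replicate numbers are not stated to pair samples; same-numbered samples deviated together (r = 0.563 across 21649 genes, over 2 numbers only). With the replicate block, unadjusted p in limma was under 0.05 for 1556 of all 21649 genes, in place of 347. It was so for 3 of the 7 genes: Mmp7, Ang4 and Habp2. None of the 7 had an adjusted p below 0.634 in limma. The count of 347 was 114 with normexp, 524 without a filter on dim probes, 147 in the scaled deposited table, and 182 to 1338 with a sample left out. The 1843 genes lower without overlap were 1119 with normexp, 1103 with scaling to the array median, 3862 in the deposited table as it stands, 3088 with scaling to spike-in controls, and 4706 to 6874 with a sample left out, where fewer values make separation easier.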
